A study of Mus musculus with 12 samples.

Results

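Immunoglobulin genes took 282 of the 33100 gene rows of the count table. They are the rows of the variable (V) and joining (J) segments of the heavy, kappa and lambda loci, the constant (C) genes of these loci, and the joining chain gene Jchain, chosen by symbol alone. The set holds 127 heavy V, 4 heavy J and 8 heavy C genes, 124 kappa V and 5 kappa J genes with Igkc, 3 lambda V, 5 lambda J and 4 lambda C genes, and Jchain. By position on GRCm38, 139 of them lie on chromosome 12, 130 on chromosome 6, 12 on chromosome 16 and 1 on chromosome 5. All 282 had reads in at least 1 library.

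The libraries are bulk RNA sequencing of sorted mouse spleen or tumor cells that bear the label NK (natural killer) cells. They form 4 groups of 3 libraries: spleen WT and tumor WT from control mice, and spleen cKO and tumor cKO from mice with a conditional knockout of 1 gene. The sources used here give no age, strain, tumor line or promoter that drives the deletion. Whether the 3 libraries of a group stem from different animals is not stated, so p-values reflect only how these libraries scatter, which may be technical.

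An antibody is built from heavy and light chains. A developing B cell joins single V, (D) and J segments by V(D)J recombination into 1 exon, so all descendants of a B cell carry the same rearranged segments, and the RNA splices that exon to a constant gene. The first heavy constant genes used are Ighm and Ighd, and IgD is a mark of naive mature B cells. Class switching replaces them with the genes of IgG, IgE or IgA, and plasma cells secrete antibody in large amounts. Jchain links secreted IgM and IgA into polymers. NK cells do not assemble immunoglobulin genes.

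The segments on which the results turn are shown 5′ to 3′ on the strand of the RNA, from the GENCODE vM21 transcripts of GRCm38, in which 281 of the 282 genes matched an immunoglobulin transcript. First come the 4 heavy J segments, which encode the end of the variable domain. The capitals mark TGGGG, the start of the conserved tryptophan and glycine stretch of heavy J. Both strands were searched, and the motif was found on the RNA strand of 4 of 4 heavy J segments. It also stood in the first 48 bases of 12.3% of all GENCODE transcripts.
Ighj1: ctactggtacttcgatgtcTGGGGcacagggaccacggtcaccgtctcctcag
Ighj2: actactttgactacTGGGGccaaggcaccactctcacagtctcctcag
Ighj3: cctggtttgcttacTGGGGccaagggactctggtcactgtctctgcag
Ighj4: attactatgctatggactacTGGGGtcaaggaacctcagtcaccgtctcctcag

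In the kappa J segments the capitals mark TTCGG, the start of the phenylalanine and glycine stretch of light chain J. It was found in 4 of 5 kappa J segments, on the RNA strand, and in the first 38 bases of 3.40% of all GENCODE transcripts. The letters are not in Igkj3. For the transcripts, here and below, a match on either strand was counted.
Igkj1: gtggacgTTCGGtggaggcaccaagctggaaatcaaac
Igkj2: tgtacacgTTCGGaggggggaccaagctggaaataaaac
Igkj3: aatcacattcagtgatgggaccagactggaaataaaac
Igkj4: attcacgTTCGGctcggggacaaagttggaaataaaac
Igkj5: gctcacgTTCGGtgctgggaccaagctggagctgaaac

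Next are the last 300 bases of the V exon of 3 segments, all on the minus strand of GRCm38. Ighv4-1 (chr12:113948282-113948581) and Igkv1-88 (chr6:68862265-68862564) are the pair that dominated 1 tumor WT library. Ighv1-81 (chr12:115920279-115920578) had the most heavy V reads in spleen. The capitals mark a tyrosine or phenylalanine codon followed by a cysteine codon (TAC or TTC, and then TGT or TGC) near the 3′ end, where the V segment is joined. One of these 4 motifs stood in the last 60 bases of 225 of the 254 V segments and of 15.1% of all GENCODE transcripts. These 3 stretches are all V exon, and the reference bases are not the sequence of the rearranged genes in the samples.
Ighv4-1: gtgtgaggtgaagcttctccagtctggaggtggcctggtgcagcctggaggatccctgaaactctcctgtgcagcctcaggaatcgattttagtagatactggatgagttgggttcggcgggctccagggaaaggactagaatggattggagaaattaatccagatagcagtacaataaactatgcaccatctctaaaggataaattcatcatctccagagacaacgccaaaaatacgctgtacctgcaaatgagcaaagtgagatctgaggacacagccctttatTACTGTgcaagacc
Igkv1-88: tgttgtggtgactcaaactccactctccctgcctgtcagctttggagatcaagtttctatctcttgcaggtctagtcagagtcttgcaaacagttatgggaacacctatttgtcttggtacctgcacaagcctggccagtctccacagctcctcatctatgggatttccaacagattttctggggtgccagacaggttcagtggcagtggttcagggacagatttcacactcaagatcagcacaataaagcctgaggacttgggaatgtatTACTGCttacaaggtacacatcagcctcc
Ighv1-81: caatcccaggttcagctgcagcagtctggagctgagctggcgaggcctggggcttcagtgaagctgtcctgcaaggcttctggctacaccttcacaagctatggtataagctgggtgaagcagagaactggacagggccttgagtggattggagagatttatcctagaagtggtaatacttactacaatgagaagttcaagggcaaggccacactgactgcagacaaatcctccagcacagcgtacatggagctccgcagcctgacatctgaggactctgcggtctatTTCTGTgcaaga

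Libraries held 9542329 to 37118494 counts. Summed over the fixed marker lists, B cell genes summed to between 4278.5 and 5262.1 CPM (counts scaled to the library total times its TMM composition factor) in a spleen library, but only to between 48.3 and 234 CPM in a tumor library. Those of NK cells summed to between 1220.3 and 1586 CPM (spleen) and between 39.1 and 202 CPM (tumor), where Ncr1, which encodes the NK receptor NKp46, was at 0.42 to 1.86 CPM. For macrophage genes the sums were 316 to 691 CPM (spleen) and 1506 to 27916 CPM (tumor). Spleen libraries labelled as NK cells thus held B cell transcripts, including Pax5 at 466 to 649 CPM, and tumor libraries held little RNA of NK markers. One tumor WT library, replicate 3, stood apart in its immunoglobulin reads, and tumor WT replicate 1 shared its leading segments, so results that rest on them are also given without them.

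Immunoglobulin reads made up 0.503%, 0.503% and 0.490% of the counts of spleen WT replicates 1, 2 and 3, and 0.468%, 0.461% and 0.472% in spleen cKO. In tumor WT they made up 0.0642%, 0.0266% and 1.27%, and in tumor cKO 0.0459%, 0.0210% and 0.0403%. The spleen libraries lay close together, 5 of the 6 tumor libraries lay below all of them, and tumor WT replicate 3 lay above all of them. Replicate 3 of tumor WT held 235638 immunoglobulin reads, while the other tumor libraries held 3317 to 12172. The V segments Ighv4-1 and Igkv1-88 together supplied 69.4% of its immunoglobulin reads, and without them its share was 0.390%. In tumor WT replicates 1 and 2 the pair supplied 22.5% and 2.70% of the immunoglobulin reads. Members detected by at least 1 read numbered 216 to 230 in spleen libraries and 67 to 147 in tumor libraries.

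**Figure D1:**
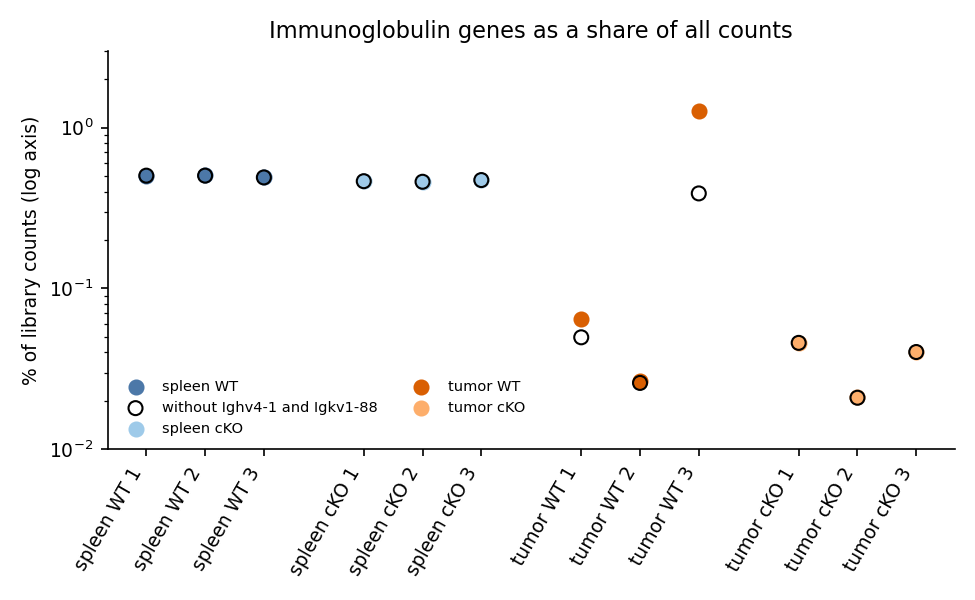
Share of library counts in the 282 immunoglobulin genes (%, log axis) for each of the 12 libraries, with open circles for the share without Ighv4-1 and Igkv1-88. Spleen libraries lie between 0.461% and 0.503%, and among tumor libraries replicate 3 of tumor WT stands apart at 1.27%, or 0.390% without the pair.

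Of the 282 genes, 174 had enough reads to be tested: 66 heavy V, 80 kappa V, 7 heavy C, 4 heavy J, 5 kappa J, Igkc, Jchain and 10 lambda genes. Tests were edgeR quasi-likelihood F-tests, two-sided, with Benjamini-Hochberg adjustment over all 16831 genes tested and a threshold of 0.05 on the adjusted p. The 108 genes left out by the filter on low counts had few reads and are covered by counts alone. Among them was Ighe, the IgE constant gene, at 3.17 CPM in spleen WT replicate 2, at most 0.14 CPM in the other libraries and at 0 in 9 of the 12.

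In spleen, the heavy constant genes were led by Ighm (chr12:113418558-113422730), the constant gene of IgM. It stood at 1690.5, 1867.4 and 1794.2 CPM in spleen WT and at 1815.3, 1570.2 and 1711 CPM in spleen cKO. Ighd (chr12:113406604-113416324), the constant gene of IgD, stood at 485, 425 and 419 CPM in spleen WT and at 385, 372 and 396 CPM in spleen cKO. The Ighm ranges of the genotypes overlapped, and the Ighd values were all lower in spleen cKO. On a scale that also divides by gene length (RPKM), Ighm took 76.6% to 81.5% of the summed heavy constant level of a spleen library and Ighd 17.2% to 21.8%. The 4 IgG genes together took 0.744% to 1.46%.

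The spleen V reads were spread widely over the kappa segments and less evenly over the heavy segments, with the same leading segments in all 6 libraries. Ighv1-81 took 33.1%, 37.4% and 44.9% of the heavy V reads in spleen WT and 37.4%, 29.1% and 37.5% in spleen cKO. The kappa segments Igkv6-15 and Igkv10-96 led their locus, with 9.22% to 11.9% and 7.39% to 10.3% of the kappa V reads. Between 89 and 96 heavy V segments and between 94 and 105 kappa V segments had reads in each spleen library. As an inverse Simpson number, the number of equally used segments that would give the same concentration of reads, kappa V usage was 26.1 to 28.7 and heavy V usage 4.77 to 10.3. Pearson correlations of V segment shares between spleen libraries were 0.943 to 0.992 over the 127 heavy V segments and 0.929 to 0.981 over the 124 kappa V segments. Rank correlations, in which leading segments weigh less, were 0.662 to 0.823 and 0.908 to 0.935. These describe likeness only, since the points share the reference and the segments' lengths.

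Lambda genes made up a larger part of the summed light constant RPKM in spleen than of the summed light V RPKM. The lambda constant genes Iglc1 to Iglc4 took 54.1% to 56.5% of the summed light constant RPKM in spleen, while lambda V segments took 8.77% to 12.1% of the summed light V RPKM. Iglc2 stood at 246, 221 and 257 CPM in spleen WT and Iglc3 at 252, 260 and 262 CPM, and Iglc1 was lower at 51.4, 64.2 and 45.3 CPM. The values of Iglc2 and Iglc3 overlap, and both lie above every value of Iglc1. Counting limits this comparison: Iglc2 and Iglc3 are 95.4% identical, and no source used here says how reads that fit both were counted. Iglc3 shares 93 bases with 2010309G21Rik on the other strand, and the strand setting of the counting is not given either. Of the lambda V reads of a spleen library, Iglv1 took 40.5% to 56.9%, and 65.1% to 97.9% of those of a tumor library. All 38 bases of Iglj2 lie within Iglc2, and Iglj2 was given 1418 to 1827 reads in a spleen library, so some reads may be counted under both symbols.

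Between the genotypes in spleen, none of the 174 tested immunoglobulin genes passed the test, beside a background of 0.0297% of all genes called. At an unadjusted p under 0.05 there were 3, and DESeq2 also called 0, with 4 at an unadjusted p under 0.05. The median log2 difference of the tested members, cKO minus WT, was -0.07, and that of all tested genes was 0. Ighv4-1 had a single high library here too. Replicate 1 of spleen cKO held 446 of its reads, 12% of the heavy V reads, while the other spleen libraries held 29 to 100. This library also held the most Igkv1-88 reads in spleen, 131 against 32 to 45. Spleen libraries differed little in the B cell list as well, at 4676.5 to 5262.1 CPM in WT and 4278.5 to 4896.9 CPM in cKO.

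From spleen to tumor, most tested immunoglobulin genes fell. In WT, 99 of the 174 were lower and 4 higher in tumor, where 62.0% of all genes were called, 28.1% as lower and 33.9% as higher. In cKO, 114 were lower and 2 higher, where 60.5% of all genes were called, 28.8% as lower and 31.7% as higher. Median log2 differences, tumor minus spleen, were -3.36 in WT and -4.15 in cKO for the members, beside 0.12 and 0.07 for all tested genes. The low-count filter bears on these counts and medians: 165 members passed it on the spleen libraries alone and 56 on the tumor libraries alone. Members with reads mainly in spleen thus entered the test, where they could mainly be called lower. The B cell list moved the same way, with 16 of 16 genes lower in tumor in both genotypes, and its part in the result was not tested. In bulk RNA, fewer cells of a type and less RNA per cell cannot be told apart.

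Ighd showed the deepest fall among the constant genes of the heavy locus. It went from 372 to 485 CPM in spleen to 0.82, 0.90 and 0.18 CPM in tumor WT and to 4.70, 1.99 and 2.56 CPM in tumor cKO. No tumor library came near a spleen library. The log2 difference was -9.33 ± 0.41 (SE; edgeR adjusted p = 7.96e-09) in WT and -6.94 ± 0.35 (edgeR adjusted p = 2.43e-08) in cKO. Lambda genes fell in the same way: all 10 tested were lower in tumor in both genotypes. Iglc2 fell by 8.45 and 7.80 on the log2 scale in WT and cKO, Iglc3 by 7.68 and 8.64, and Iglc1 by 3.22 and 3.87. In the V segments, 29 of 66 heavy and 52 of 80 kappa were lower in WT, and 29 heavy and 63 kappa in cKO.

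Ighm behaved less evenly. Its tumor WT values were 217, 130 and 2122 CPM, and its tumor cKO values 82.1, 69.3 and 121 CPM. Replicate 3 of tumor WT lay above every spleen library, and the other 5 tumor libraries lay far below. The fall passed the test in cKO, by 4.22 ± 0.94 on the log2 scale (edgeR adjusted p = 0.00326), and the WT value of -1.12 ± 0.83 did not (edgeR adjusted p = 0.266). Without tumor WT replicate 3 the WT value of Ighm was -3.33 (edgeR adjusted p = 1.31e-06). Igkc (chr6:70726435-70726966), the only kappa constant gene, had the same pattern: 376 to 484 CPM over the spleen libraries, 61.4, 29.3 and 1075.6 CPM for tumor WT, and 46.9, 15.5 and 34.4 CPM for tumor cKO. From spleen cKO to tumor cKO it fell by 3.66 ± 1.15 on the log2 scale (edgeR adjusted p = 0.02), while the WT value was -0.24 (edgeR adjusted p = 0.85), or -3.32 (edgeR adjusted p = 0.000126) without tumor WT replicate 3. Leaving out any 1 of the tumor cKO libraries ended the Igkc call, with edgeR adjusted p from 0.0519 to 0.076.

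Ighg1 went against the rest. This constant gene of IgG1 (chr12:113325240-113330523) was at 0.23, 4.22 and 1.32 CPM in spleen WT and at 2.94, 2.91 and 1.0 CPM in spleen cKO. Its tumor WT libraries had 36.3, 11.1 and 99.6 CPM and its tumor cKO libraries 93.8, 41.5 and 54.0 CPM. All 6 tumor libraries lay above all 6 spleen libraries. Ighg1 rose by 4.64 ± 0.98 (edgeR adjusted p = 0.0022) in WT and by 4.81 ± 0.98 (edgeR adjusted p = 0.00182) in cKO on the log2 scale. The calls held when any single library was left out. The WT value was 2.53 (edgeR adjusted p = 0.0548) without tumor WT replicates 1 and 3.

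The other members called higher in tumor were few. In cKO it was Ighg2c (chr12:113285325-113288932), the constant gene of IgG2c, by 3.49 on the log2 scale (edgeR adjusted p = 0.0372), with 35.0, 0.84 and 27.8 CPM in tumor cKO and 0.71 to 3.01 CPM in spleen cKO. Replicate 2 of tumor cKO lay inside the spleen range. Leaving out any 1 spleen cKO library, or replicate 1 or 3 of tumor cKO, raised the edgeR adjusted p of Ighg2c to between 0.0665 and 0.112. In WT they were Ighv4-1, Igkv1-88 and Jchain, which turn on tumor WT replicate 3.

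**Figure D2:**
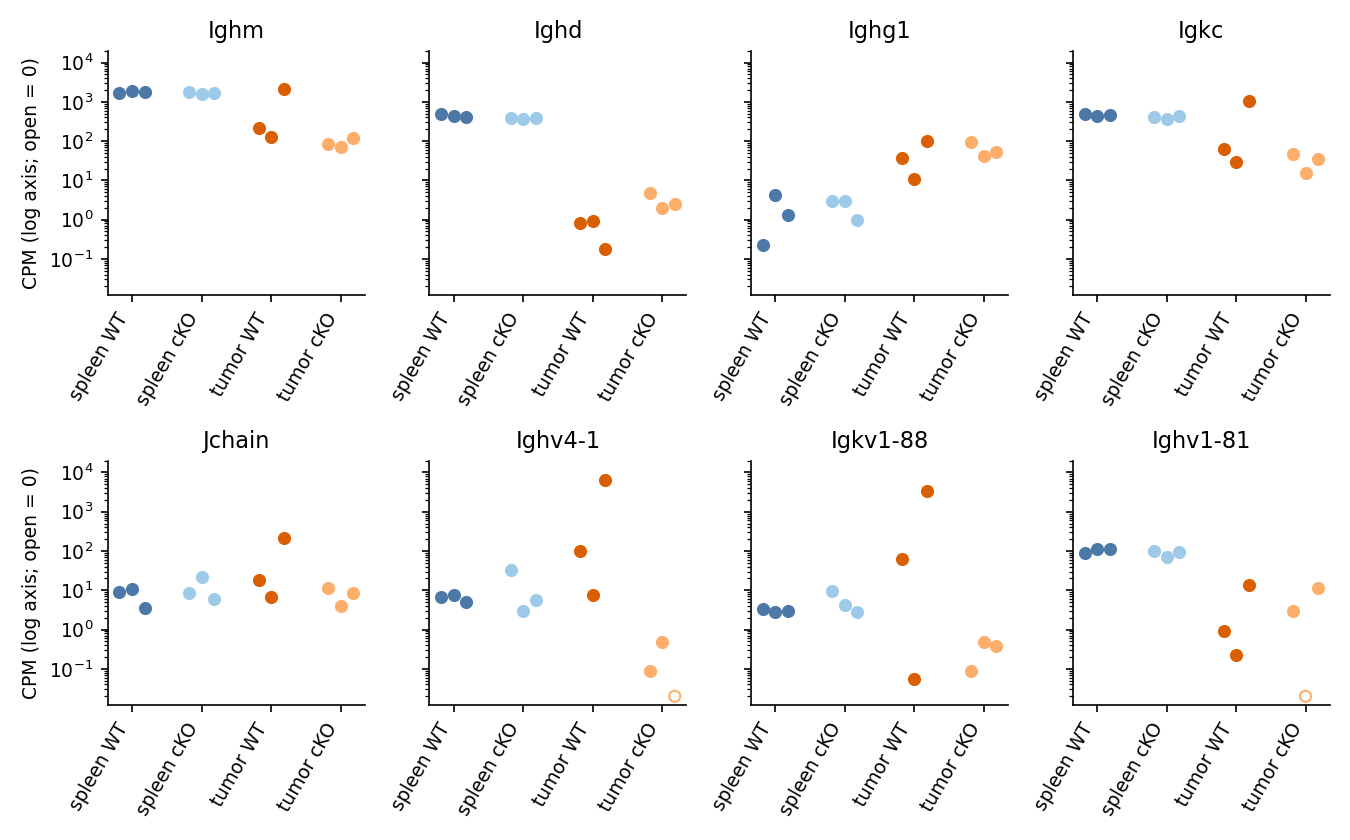
Level of 8 members in each of the 12 libraries (CPM, log axis, with open circles at the floor of the axis for 0). Ighd is lower in every tumor library than in every spleen library and Ighg1 higher, and replicate 3 of tumor WT is the high point of Ighm, Igkc, Jchain, Ighv4-1 and Igkv1-88 in that group.

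Ighv4-1 (chr12:113948282-113948796) had 1674, 265 and 107901 reads in tumor WT and 2, 8 and 0 reads in tumor cKO. Igkv1-88 (chr6:68862265-68863031) had 1070, 2 and 55596 reads in the tumor WT libraries but 2, 8 and 10 in those of tumor cKO. In CPM, Ighv4-1 was at 97.5, 7.49 and 6512 in tumor WT against 2.91 to 32.8 in the 6 spleen libraries, and Igkv1-88 at 62.3, 0.06 and 3355 against 2.85 to 9.63. Replicates 1 and 3 of tumor WT were thus above every spleen library for both segments, and replicate 2 was not.

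Within the heavy locus, Ighv4-1 took 44.5% of the V reads of tumor WT replicate 1 (Wilson 95% interval 42.2% to 46.7%), 16.3% of replicate 2 and 96.8% of replicate 3 (96.7% to 97.0%). Igkv1-88 took 51.8%, 0.23% and 94.9% of the kappa V reads of the same libraries. These intervals cover counting error only, and were computed with the reads divided by 2, which makes them wider. The ratio of Ighv4-1 to Igkv1-88 reads was 1.56 in replicate 1 and 1.94 in replicate 3, while replicate 2, with 2 reads of Igkv1-88, gave 132.5. In spleen the ratio ran from 0.690 to 3.40, at levels of 29 to 446 and 32 to 131 reads. In tumor WT replicate 1 a further segment, Ighv9-1, took 30.5% of the heavy V reads, where it reached 67.0 CPM and the other tumor WT replicates 0.06 and 0 CPM. Of the 50-base windows of the Ighv4-1 transcript, 29.9% also occur in Ighv4-2, which is 95.5% identical to it, so the 2 counts are not independent. No 50-base window of Igkv1-88 occurs in another gene.

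Other genes of antibody production were high in the same library. Jchain (chr5:88519809-88527891) was at 17.8, 6.75 and 219.87 CPM in tumor WT, at 3.97 to 11.1 CPM in tumor cKO and at 3.60 to 21.9 CPM in spleen. Ighj2 took 85.5% of the heavy J reads of tumor WT replicate 3 and 26.0% to 33.3% of those of a spleen library. Igkj1 took 91.1% of the kappa J reads of replicate 3 and 57.5% of replicate 1, beside 25.0% to 27.7% in spleen. There Igkj5 led with 39.3% to 44.2% and Igkj3 took 2.54% to 3.67%. Igkj1 had 104 of the 270 kappa J reads of tumor WT replicate 2. The tumor cKO libraries had 69 of 283, 38 of 59 and 35 of 206. A high Igkj1 share was thus not confined to tumor WT. Ighj2 had 54 of the 118 and 56 of the 135 heavy J reads of tumor WT replicates 1 and 2. In tumor cKO it had 30 of 145, 4 of 49 and 31 of 141. The J segments shown above are short, and reads of a rearranged gene span V and J, so these shares do not count independent molecules. A pair of genes of antibody folding and secretion, picked after their values were seen, were also high there among tumor libraries: Mzb1 at 12.3 CPM against 0.48 to 0.82 CPM, and Derl3 at 2.66 CPM against 0.42 to 0.73 CPM. Of the 15 genes of the plasma cell list, 9 were highest in this library among the 6 tumor libraries and 1 was lowest. The B cell list was not highest in replicate 3: it summed to 96.7, 234 and 145 CPM in the 3 tumor WT libraries.

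Tested over the group, Ighv4-1 was higher in tumor than in spleen WT by 8.42 ± 2.40 on the log2 scale (edgeR adjusted p = 0.0134), and Igkv1-88 by 8.51 ± 2.57 (edgeR adjusted p = 0.0176). Without replicate 3 of tumor WT the values were 3.06 (edgeR adjusted p = 0.0485) for Ighv4-1 and 3.35 (edgeR adjusted p = 0.0832) for Igkv1-88. With only replicate 2 left in tumor WT, Igkv1-88 was at -5.59 (edgeR adjusted p = 0.0014) and Ighv4-1 was at 0.25 (edgeR adjusted p = 0.883). Jchain was higher by 3.37 ± 1.19 (edgeR adjusted p = 0.0318), and by 0.67 (edgeR adjusted p = 0.399) without replicate 3.

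**Figure D3:**
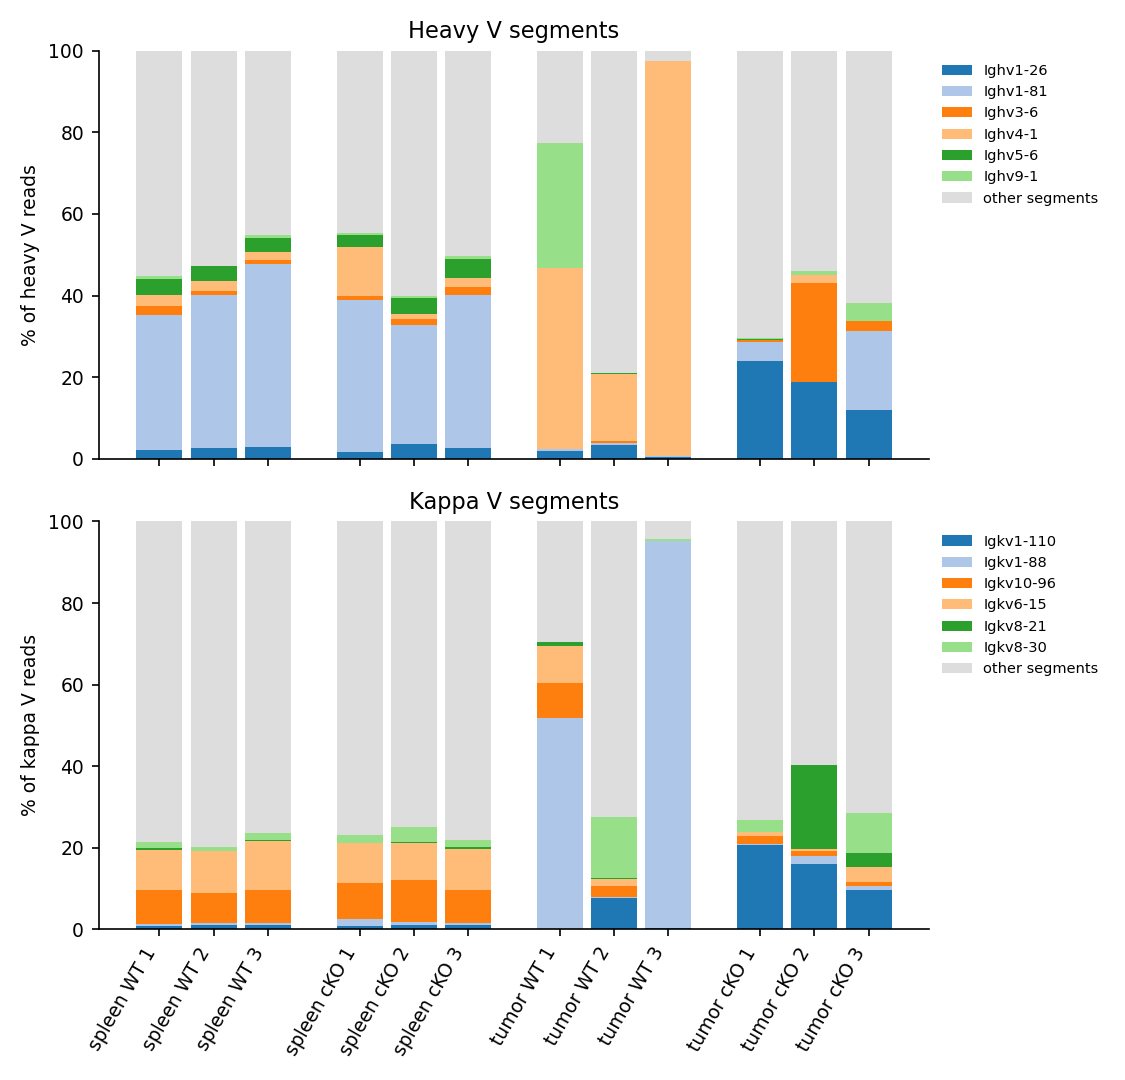
Shares of heavy V reads (upper panel, %) and kappa V reads (lower panel, %) in each of the 12 libraries. Coloured segments led a library or were among the 2 leading ones of a group by mean share, and all others are grey. Ighv4-1 and Igkv1-88 fill 96.8% and 94.9% of tumor WT replicate 3, the spleen libraries resemble each other, and the tumor cKO libraries differ from each other.

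Tumor WT replicate 2 and the tumor cKO libraries spread their V reads more evenly than tumor WT replicates 1 and 3 by the inverse Simpson number. Tumor cKO held 1511, 416 and 1559 heavy V reads and 1160, 387 and 1194 kappa V reads, so shares there rest on few reads. Ighv1-26 took 24.0%, 18.8% and 11.9% of the heavy V reads, Ighv3-6 took 24.3% in replicate 2, and Ighv1-81 took 19.4% in replicate 3. Igkv1-110 took 20.7%, 16.0% and 9.72% of the kappa V reads, and Igkv8-21 took 20.7% in replicate 2. The inverse Simpson number of heavy V usage was 11.6, 7.29 and 12.9 for tumor cKO, compared with 3.34, 16.0 and 1.07 for tumor WT. For kappa V usage the values were 13.3, 8.26 and 17.9, compared with 3.35, 19.2 and 1.11. The tumor groups overlapped in both, and tumor WT held both the lowest and the highest values. Heavy V values of spleen, 4.77 to 10.3, overlapped those of tumor cKO and lay below tumor WT replicate 2. Heavy V reads were thus not spread more evenly in spleen than in those libraries. Kappa V values of spleen, 26.1 to 28.7, lay above every tumor library. Pearson correlations of segment shares between tumor cKO libraries were 0.298 to 0.559 for heavy V and 0.257 to 0.439 for kappa V, below all pairs of spleen libraries, and between tumor WT replicates 1 and 3 they were 0.812 and 0.949. The rank correlations of that last pair were lower, at 0.405 and 0.0942.

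By V family, heavy family 1, the largest with 62 segments, took 60.04% to 71.5% of heavy V reads in spleen and 59.4%, 49.04% and 62.2% in tumor cKO. In tumor WT it took 14.6%, 38.3% and 1.32%, below every other library. Heavy family 4, which holds Ighv4-1 and Ighv4-2, took 44.6%, 17.0% and 97.0% there. Replicate 2 of tumor WT also had 17.6% of its heavy V reads in family 7, beside 0.327% to 1.39% in spleen.

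Dividing V by C levels showed a further difference of tumor WT replicate 3. The ratio of summed heavy V to summed heavy C RPKM lay between 0.596 and 0.642 for spleen libraries, was 4.43, 1.54 and 13.7 for tumor WT libraries, and was 1.53, 1.18 and 1.44 for tumor cKO libraries. All tumor libraries lay above all spleen libraries. With Ighv4-1 taken out of the V sum and the C sum kept whole, the tumor WT values were 2.63, 1.31 and 0.489. The same was done for Igkv1-88 below. A fall is built into this step, so these values do not give the V to C ratio of the remaining segments. The kappa ratio lay between 1.99 and 2.53 for spleen, was 2.86, 1.21 and 4.82 for tumor WT and 1.51, 2.14 and 1.92 for tumor cKO, and without Igkv1-88 the tumor WT values were 1.37, 1.21 and 0.238. V genes and C genes differ in length and in how reads map to them, so the ratios compare libraries and do not count V against C molecules.

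**Figure D4:**
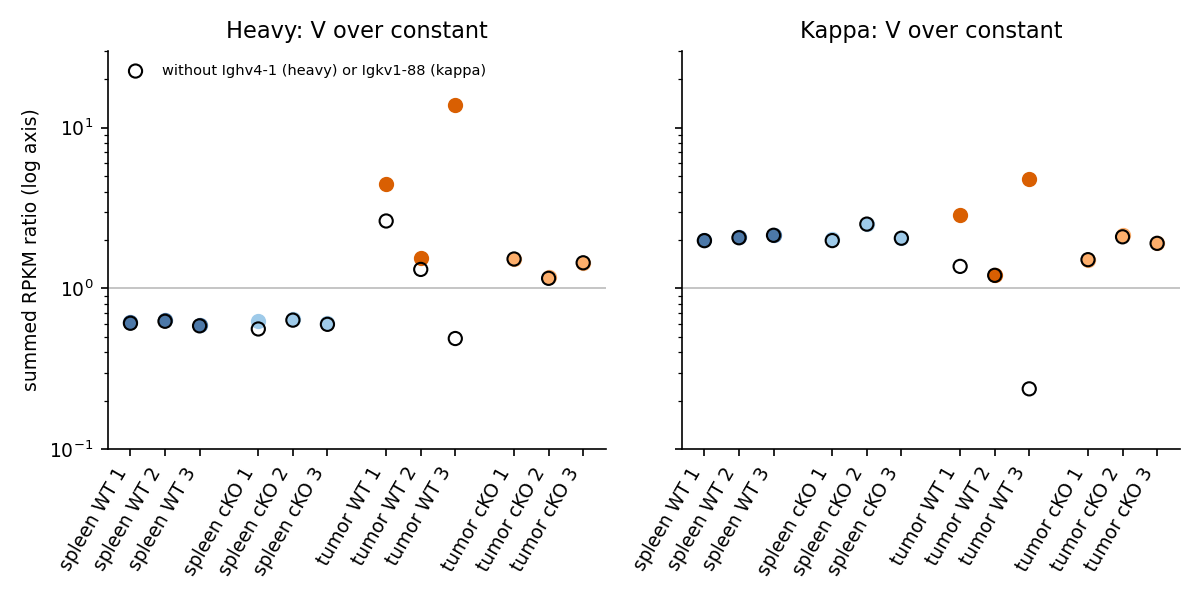
Ratio of summed V to summed C RPKM (log axis) for the heavy locus (left) and the kappa locus (right) in each of the 12 libraries, coloured by group, with open circles for the ratio without Ighv4-1 or Igkv1-88. The heavy ratio is 0.596 to 0.642 in spleen and above 1 in all tumor libraries. It is 13.7 in tumor WT replicate 3, or 0.489 with Ighv4-1 taken out of V and C kept whole.

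Between the genotypes in tumor, 43 of the 174 tested immunoglobulin genes were called, 14 higher and 29 lower in cKO, where 38.0% of all genes were called, 16.4% as higher and 21.6% as lower. The share of members called was therefore below that of all genes, but many of the 174 entered the test through their spleen reads. With only the tumor groups fitted, 56 members were tested and 7 called, 2 higher and 5 lower, beside 5383 of 16253 genes. The median log2 difference, cKO minus WT, was -0.63 for the members and -0.12 for all tested genes. Of the heavy V segments 7 rose and 13 fell, of the kappa V segments 5 rose and 11 fell, and none of the 10 lambda genes passed. Without tumor WT replicate 3 the counts were 17 higher and 22 lower, of which 26 were among the 43. The excess of falls was not stable: there were 18 higher and 13 lower without tumor cKO replicate 2, and 12 higher and 9 lower both without tumor cKO replicate 3 and by limma on log2(RPKM + 0.1).

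Ighd rose in tumor cKO by 2.18 ± 0.38 on the log2 scale (edgeR adjusted p = 0.00106), from 0.63 ± 0.39 to 3.08 ± 1.43 CPM (SD, n = 3). The 3 tumor cKO libraries all lay above the 3 tumor WT libraries, and the call held under every alternative tried. The levels remain far below spleen. Of the 16 genes of the B cell list beside it, 3 rose, 3 fell and 10 did not pass. The part of B cells in the Ighd result was not tested.

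In tumor cKO, Ighm fell by 3.18 ± 0.89 on the log2 scale (edgeR adjusted p = 0.0195). Its 3 tumor cKO values, 69.3 to 121 CPM, lay below all tumor WT values, 130 to 2122 CPM, by a narrow margin at the nearest pair. Without tumor WT replicate 3 the difference was -0.92 (edgeR adjusted p = 0.0118). Leaving out any 1 tumor cKO library ended the call, with edgeR adjusted p between 0.0659 and 0.0728. Igkc fell by 3.59 ± 1.15 (edgeR adjusted p = 0.0338) and Jchain fell by 3.36 ± 1.17 (edgeR adjusted p = 0.0473), but without tumor WT replicate 3 they were at -0.47 (edgeR adjusted p = 0.396) and -0.61 (edgeR adjusted p = 0.506). The values of both overlapped between the groups.

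The IgG genes made up a larger part of the heavy constant RNA in tumor cKO. Per length, in RPKM, Ighg1, Ighg2b, Ighg2c and Ighg3 together took 58.8%, 34.0% and 42.2% of the summed heavy constant level of the tumor cKO libraries. The tumor WT libraries had 10.9%, 12.8% and 5.29%, and the spleen libraries 0.744% to 1.46%. The 3 groups of values do not overlap. Ighm took the converse, 37.6%, 63.2% and 56.3% in tumor cKO and 88.2%, 86.5% and 94.7% in tumor WT. As shares, these move together by construction, and levels are needed beside them.

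In levels, Ighg2c rose by 4.77 ± 1.35 on the log2 scale (edgeR adjusted p = 0.0188), from 0.12, 1.69 and 0.24 CPM in tumor WT. The groups overlapped, since replicate 2 of tumor cKO was at 0.84 CPM. Without tumor WT replicate 1 or 3, or tumor cKO replicate 3, the edgeR adjusted p of Ighg2c was 0.0552 to 0.0624. Ighg1 did not pass, at 0.37 ± 0.78 (edgeR adjusted p = 0.74), nor without tumor WT replicate 3, at 1.44 (edgeR adjusted p = 0.186). Ighg2b was at 0.29, 1.75 and 27.3 CPM in tumor WT and 13.6, 8.37 and 10.7 CPM in tumor cKO, a difference of 0.17 (edgeR adjusted p = 0.918). That value rested on tumor WT replicate 3: without it, Ighg2b was higher in tumor cKO by 3.32 on the log2 scale (edgeR adjusted p = 0.00202), and the 3 tumor cKO libraries lay above the other 2 of tumor WT. Ighg3 was at 0, 4.38 and 15.3 CPM against 0.26, 0 and 2.60 CPM, with a difference of -2.69 (edgeR adjusted p = 0.139), or -1.17 (edgeR adjusted p = 0.536) without tumor WT replicate 3 and -3.26 (edgeR adjusted p = 0.027) without replicate 1. Igha, the IgA constant gene, was at 1.92, 0 and 0 CPM against 4.45, 1.63 and 0.93 CPM, with 1.94 (edgeR adjusted p = 0.232). Its only tumor WT reads stood in replicate 1, without which the group was at 0 and the edgeR adjusted p was 0.000975.

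**Figure D5:**
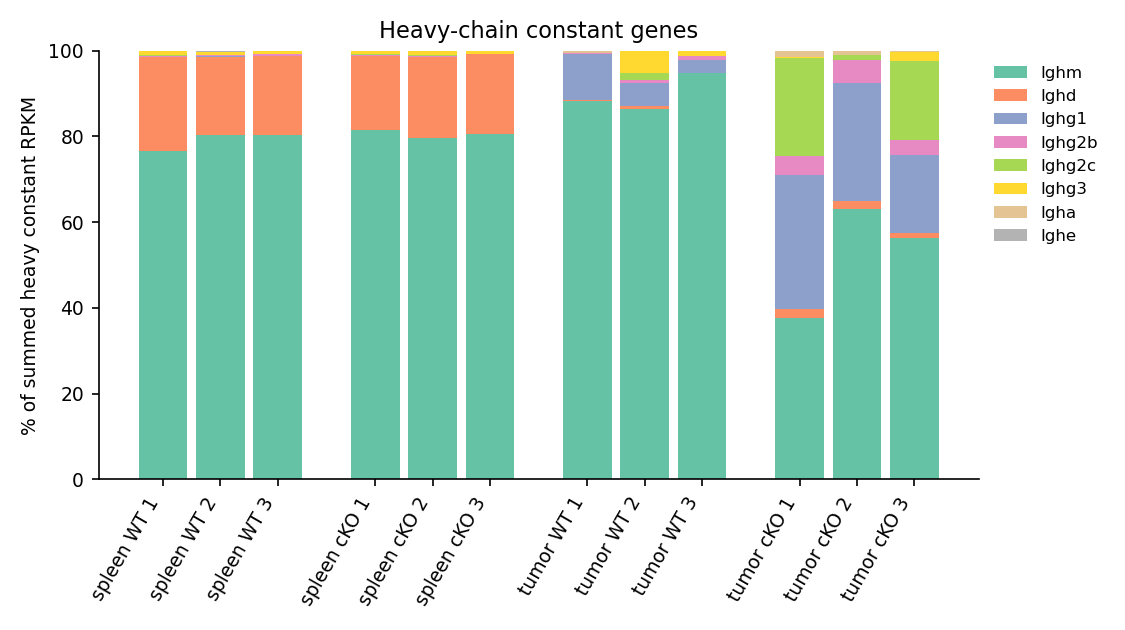
Composition of the heavy constant genes in each of the 12 libraries (% of summed RPKM of the 8 genes). Spleen libraries hold Ighm and Ighd almost alone, tumor WT libraries hold 86.5% to 94.7% Ighm, and tumor cKO libraries hold 34.0% to 58.8% IgG genes.

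Among V and J segments, the falls in tumor cKO began with the dominant pair. Ighv4-1 fell by 13.73 ± 3.15 on the log2 scale (edgeR adjusted p = 0.00868) and Igkv1-88 fell by 11.83 ± 3.06 (edgeR adjusted p = 0.0150). Without tumor WT replicate 3 the values were -8.30 (edgeR adjusted p = 0.00498) and -6.61 (edgeR adjusted p = 0.0221). With tumor WT replicate 2 alone, Igkv1-88 was at 2.34 (edgeR adjusted p = 0.175). The Ighv4-1 call was lost without tumor cKO replicate 3 (edgeR adjusted p = 0.0529), and that of Igkv1-88 without any 1 tumor cKO library (edgeR adjusted p = 0.0504 to 0.0752). Ighj2 fell by 4.85 ± 1.37 (edgeR adjusted p = 0.02) and Igkj1 fell by 5.33 ± 1.48 (edgeR adjusted p = 0.0184), and without tumor WT replicate 3 the values were -1.26 (edgeR adjusted p = 0.0494) and -1.22 (edgeR adjusted p = 0.0253).

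A pair of low segments fell without resting on 1 library. Ighv6-3 was at 12.3, 2.77 and 13.6 CPM in tumor WT and at 0, 0.12 and 0.08 CPM in tumor cKO, a log2 difference of -7.12 ± 0.93 (edgeR adjusted p = 0.000163). Ighv1-22 was at 4.77, 0.73 and 4.47 CPM against 0.04, 0 and 0 CPM, a difference of -7.21 ± 1.01 (edgeR adjusted p = 0.000213). Neither segment overlapped between the groups, and both calls held under every alternative tried. Their spleen levels, 0.73 to 5.68 CPM and 0.91 to 1.91 CPM, lay above every tumor cKO library and overlapped tumor WT. Ighv1-22 shares 22.8% of its 50-base windows with other genes and Ighv6-3 14.0%. Ighv10-1 fell by 5.86 (edgeR adjusted p = 0.00442), with 0.12, 2.60 and 9.11 CPM in tumor WT and 0.17, 0 and 0 CPM in tumor cKO, so its groups overlapped. Ighv4-2, at 0.23, 0.28 and 12.3 CPM in tumor WT and at 0 in tumor cKO, was at least 69.1-fold lower (edgeR adjusted p = 0.01), with the tumor cKO group set at the floor of 3 counts. Most of its tumor reads stood in replicate 3, where the near-identical Ighv4-1 had 107901.

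The segments that rose in tumor cKO were at low levels and unevenly spread over its libraries. Ighv2-3 was at 0 in all tumor WT libraries and at 2.35, 0 and 2.17 CPM in tumor cKO, at least 38.9-fold higher (edgeR adjusted p = 0.00467). Ighv14-4 was also at 0 in tumor WT and at 1.45, 0 and 2.02 CPM in tumor cKO, at least 30.1-fold higher (edgeR adjusted p = 0.00912). Each had a tumor cKO library at 0, so neither separated the groups. Igkv13-85, at 0.17, 1.57 and 0.39 CPM against 0, was at least 14.0-fold higher (edgeR adjusted p = 0.00803). Ighv3-1, at 1.28, 0.06 and 0.19 CPM against 0, was at least 12.6-fold higher (edgeR adjusted p = 0.0192), a call lost without tumor cKO replicate 1 (edgeR adjusted p = 0.0822). Both had reads in all 3 tumor cKO libraries and none in tumor WT. Ighv3-6 rose by 4.93 ± 1.16 on the log2 scale (edgeR adjusted p = 0.00561), from 0, 0.17 and 0 CPM to 0.26, 6.08 and 1.51 CPM. Its only tumor WT reads stood in replicate 2. Ighv8-12 stood at 5.13 CPM in replicate 1 of tumor cKO and at 0 to 0.12 CPM in the other tumor libraries. Its difference of 5.70 (edgeR adjusted p = 0.0342) was 0.81 (edgeR adjusted p = 0.761) without that library.

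The difference between the tissues in the effect of the knockout was tested as an interaction. It passed for 13 of the 174 members, 5 higher and 8 lower in tumor than in spleen, where 18.3% of all genes were called, 7.68% as higher and 10.6% as lower. Ighd had a more positive effect in tumor, by 2.39 ± 0.47 on the log2 scale (edgeR adjusted p = 0.00649). It had lower values in spleen cKO than in spleen WT, without passing the test there, and higher values in tumor cKO than in tumor WT. For Ighm and Igkc the interaction, -3.11 (edgeR adjusted p = 0.0999) and -3.42 (edgeR adjusted p = 0.146), did not pass, and was -0.85 (edgeR adjusted p = 0.0954) and -0.30 (edgeR adjusted p = 0.764) without tumor WT replicate 3.

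Genes that act on immunoglobulin genes or on antibodies were followed as fixed lists in tumor, cKO against WT. Of 8 tested V(D)J recombination genes 5 rose and 0 fell, in a comparison where 16.4% of all genes rose and 21.6% fell. Dntt, which adds nucleotides at the joints of V(D)J recombination, had no reads in the spleen libraries, 7.34, 7.40 and 3.62 CPM in those of tumor WT, and 105, 40.1 and 75.4 CPM in those of tumor cKO, a log2 rise of 3.57 ± 0.43 (edgeR adjusted p = 0.000511). The groups did not overlap. Rag1 and Rag2, which encode the recombinase that cuts the segments, had at most 0.12 CPM in any tumor library and were not tested. Of 8 tested class switching and hypermutation genes 6 rose and 1 fell, among them the repair genes Ung by 1.51 (edgeR adjusted p = 0.00163) and Msh6 by 1.46 (edgeR adjusted p = 1.3e-05).

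Of 14 tested genes of plasma cells and antibody secretion 2 rose and 8 fell in tumor cKO, beside the same 16.4% and 21.6% over all genes, which apply to each list here. The first 4 of the list all fell: Sdc1, the plasma cell surface proteoglycan that other cells also make, fell by 1.5 (edgeR adjusted p = 0.00074), and the transcription factor genes Prdm1 by 1.52, Irf4 by 1.21 and Xbp1 by 1.16. Sdc1 was at 70.6 to 101 CPM in tumor WT and at 3.01 to 6.03 CPM in spleen. Of 8 tested genes of immunoglobulin binding and transport 0 rose and 6 fell. Fcgrt, the neonatal Fc receptor that recycles IgG, fell by 4.15 ± 0.33 (edgeR adjusted p = 1.3e-05), from 57.9, 117 and 78.6 CPM to 6.24, 5.36 and 2.75 CPM, and Fcgr1, the high-affinity IgG receptor, fell by 1.19. Beside these, 10 of 10 macrophage genes and 7 of 10 NK cell genes fell and 4 of 10 T cell genes rose in tumor cKO, and their part in the immunoglobulin results was not tested.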

How the data were processed

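Bulk RNA sequencing was done on 12 libraries of samples labelled as NK cells, 3 in each of 4 groups, from total RNA isolated with TRIzol, per the labels' protocols. Reads were mapped with TopHat2 2.0.6 to mm10 (GRCm38), per the submitters' processing notes. The counting program, strand setting and read filters are not given in the sources used. Raw whole-number counts for each gene row were deposited, and so were RPKM values, which matched those computed from the counts within a relative tolerance of 0.001. Features overlap, so sums over genes may count a read more than once, and 68.8% to 73.3% of counts from 1 to 49 were even.

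Testing used edgeR 4.0.16 in R 4.3.3: filterByExpr over the 4 groups (16831 genes kept), TMM factors, 1 mean per group over all 12 libraries, 8 residual degrees of freedom, quasi-likelihood F-tests and Benjamini-Hochberg adjustment over all genes tested. CPM values use TMM-scaled totals, and read shares use the totals. Shares of counts, V usage and V over C ratios were described without a test. Single shares have Wilson 95% intervals, computed with the reads divided as stated above. A group without reads was set at a floor of 3 counts. The edgeR fit was tried on simulated counts in which all genes shared a common dispersion and genes at low levels were not changed. No simulated library stood apart, so calls on low segments or on such a library were not assessed by it. Alternatives were DESeq2 1.42.0, other size factors, no filter, the replicate number as a block, the compared groups only, limma 3.58.1 on log2(RPKM + 0.1) and log2(RPKM + 1), and each library left out. Shares and motifs were computed in Python 3.11.15 with pandas 2.3.3 and scipy 1.17.1, and figures with matplotlib 3.10.9.

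The members and gene lists were chosen with earlier results of these data known. Named were all constant genes and Jchain, the 2 leading V segments of each locus in each group and the leading one in each library, J segments, the 5 largest called rises and falls between genotypes in each tissue and in the difference between tissues, and genes from the first 4 of each list, of which some are not reported here. Named members with few reads or no call, such as Iglc4 and Iglj4, are covered by counts. The targeted gene is not reported here, and no check of the genotype labels was made from it.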

Additional observations from a re-analysis of the deposited data

Results flagged for a closer look

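The effect of the knockout differed between tumor and spleen for 11 named immunoglobulin genes by edgeR's interaction test, in which a value is the log2 difference of cKO minus WT in tumor minus that in spleen. Values below 0 were found for Ighv4-1 at -14.8 (edgeR adjusted p = 0.0236), Igkv1-88 at -12.7 (edgeR adjusted p = 0.0446), Ighv4-2 at -9.61 (edgeR adjusted p = 0.0344), Ighv1-22 at -7.57 (edgeR adjusted p = 0.00302), Ighv10-1 at -6.12 (edgeR adjusted p = 0.0221) and Ighv6-3 at -5.77 (edgeR adjusted p = 0.00644). Values above 0 were found for Ighd at 2.39 (edgeR adjusted p = 0.00649), Ighv3-6 at 4.78 (edgeR adjusted p = 0.038), Igkv13-85 at 6.79 (edgeR adjusted p = 0.0302), Ighv14-4 at 8.26 (edgeR adjusted p = 0.0304) and Ighv2-3 at 8.81 (edgeR adjusted p = 0.0137). Where a tumor group had no reads (Ighv4-2, Ighv14-4, Ighv2-3 and Igkv13-85) the size depends on the prior count of the fit and is no bound. The value of Igkv1-88 was -7.45 (edgeR adjusted p = 0.0578) without tumor WT replicate 3. The calls of Ighd, Ighv1-22 and Ighv6-3 held under every alternative tried, and those of the other 8 did not.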

How the results depend on the processing

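Counts of called members depended on the fit most between genotypes. In spleen no member was called, but 3 were without a low-count filter and 2 by limma on log2(RPKM + 1). The number of members tested changed as well: it was 174, but 282 without a filter and 56 with only the tumor groups fitted. In tumor, cKO against WT, 43 became 105 without a filter, 7 with only the compared groups fitted, 21 and 13 by limma with pseudocounts of 0.1 and 1, 21 to 55 with 1 library left out (21 without tumor cKO replicate 3), and 27 without both tumor WT replicates 1 and 3, an alternative chosen after seeing the data, in which the lone library is assumed to vary like the other groups. For the difference between tissues, 13 became 25 by DESeq2, 69 without a filter, 8 and 7 by limma, 4 to 25 with 1 library left out and 20 without both libraries. With 1 library left out, tumor against spleen gave 91 to 140 members in WT and 107 to 130 in cKO. The mean immunoglobulin share of spleen cKO was 0.4673%, and 0.4542% with TMM-scaled totals. Without tumor WT replicates 1 and 3 the sign turned for Igkc (0.17), Igkv1-88 (2.34) and Jchain (0.25) in tumor cKO against WT, for Igkv1-88 (-5.59) and Jchain (-0.19) in tumor against spleen WT, and for Igkv1-88 (1.5) and Igkc (0.34) in the difference. With 1 library left out, values of constant genes that were not called ran from -0.10 to 1.44 for Ighg1 and from -0.39 to 3.32 for Ighg2b in tumor cKO against WT, and from -3.32 to 0.32 for Igkc in tumor against spleen WT, with the highest values of Ighg1 and Ighg2b and the lowest of Igkc without tumor WT replicate 3. Of 94 called fold changes of named members, 57 kept direction and call under all alternatives run: 5 of 19 in tumor cKO against WT, 22 of 32 and 27 of 32 for tumor against spleen in WT and cKO, and 3 of 11 in the difference. With no composition factor the median of all genes moved from -0.12 to 0.05 in tumor cKO against WT and from 0.12 to -0.02 in tumor against spleen WT. Same-numbered libraries did not deviate together (correlations of -0.0884 to 0.111), and with the replicate block 26 members were called in tumor cKO against WT and 8 in the difference. The low reads of tumor cKO (3317 to 10418 over all members) limit single segments there.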
